A study of Mus musculus with 12 samples.

Results

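Myoblasts are the dividing, committed precursor cells that leave the cell cycle and fuse into muscle fibres. Here, cultured myoblasts of mice homozygous for a knockout of Lmna were set against wild-type myoblasts of the same litter. The members of the comparison were genes that averaged 1 FPKM or more over the 4 myoblast columns of the deposited table and were above 0 in both compared columns, which gave 11462 of 22552 genes. FPKM values are corrected for transcript length and for the number of mapped fragments, so levels can be read across genes. The comparison used 3 of the 12 samples of a study of Lmna and Lbr knockouts in myoblasts and striated muscle.

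All mice were C57Bl/6. The Lmna-knockout group, myoblast_LMNA_KO in the labels, held 2 biological replicates that were processed in parallel and deposited as 1 column. Its control, myoblast_LMNA_wt, was 1 wild-type library of the same litter, from matings of heterozygous parents. A second control, myoblast_LBR_wt, was 1 wild-type library from the litter that gave the Lbr knockouts, and is called the other wild type. The labels do not give the part of Lmna that was deleted, nor the age or sex of the mice or the conditions of culture. With 1 column per group there is no spread between replicates, so no test was possible and no p-value is given. A gene is said to have risen or fallen where the knockout was at least 2-fold away from the own-litter wild type, a difference of at least 1 on the log2(FPKM + 1) scale. Such a call says nothing of how animals vary.

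Lamins A and C, both encoded by Lmna, are intermediate filament proteins that line the inner nuclear membrane with the B-type lamins. They anchor chromatin at the nuclear edge and, through partner proteins, tie the nucleus to the cytoskeleton. Mutations of the human gene cause muscular dystrophies, cardiomyopathy and loss of fat tissue. In skeletal muscle, differentiation is driven by the E-box binding factors MyoD and myogenin together with MEF2 proteins, which turn on the genes of the contractile apparatus.

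Among the lists examined, the thick and thin filament genes of the sarcomere had the lowest medians in the Lmna-knockout myoblasts, with 8 of 12 and 9 of 17 compared members fallen. Of 26 nuclear envelope genes, Lmna alone passed 2-fold against the own litter. Of the 11462 genes, 69 rose (0.602%) and 69 fell (0.602%). Members of 9 muscle gene lists, 159 of the 11462 genes, made up 44 of the 69 genes that fell and 1 of the 69 that rose. The lists were chosen with earlier results of these data known, so this is a description. Against the other wild type, 395 genes were at least 2-fold higher (3.45%) and 128 at least 2-fold lower (1.12%). At least 2-fold from both wild types in the same direction were 45 genes on the higher side (0.393%) and 34 on the lower side (0.297%). Of the latter, 24 belonged to the muscle lists. By any amount, the knockout was above both wild types for 42.4% of genes and below both for 25.3%.

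The wild-type columns differed more from each other than the knockout column did from that of its littermate. The own-litter wild type differed at least 2-fold from the other wild type for 312 genes, 2.72% of those compared, 235 of them higher and 77 lower. The SD of the difference over genes was 0.43 on the log2(FPKM + 1) scale between the wild types, against 0.29 between the knockout and its littermate. The knockout column stands for 2 libraries and each wild type for 1, so these SDs are not of like columns and do not compare animals. The median over all genes was 0.04 against the own litter and 0.10 against the other wild type.

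**Figure D1:**
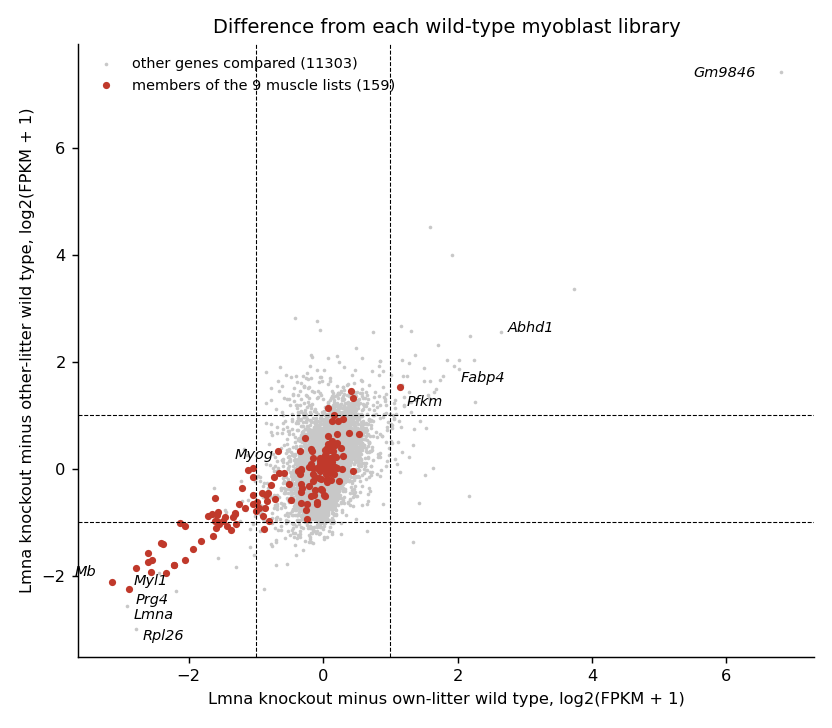
Each point is 1 of 11462 genes, placed by the log2(FPKM + 1) difference of the Lmna knockout from the own-litter wild type (x axis) and from the other wild type (y axis), with members of the 9 muscle lists in red and dashed lines at 2-fold. The lower left corner, at least 2-fold below both, holds 34 genes, of which 24 are red, and Gm9846 stands apart at the upper right.

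The columns were of similar yield. Genes at 1 FPKM or more numbered 11422 in the knockout, 11398 in the own-litter wild type and 11315 in the other wild type, and the 10 most abundant genes took 10.6%, 10.3% and 9.21% of the summed FPKM. Judged by the steps between low values, 1 FPKM of a 2000-base transcript was worth an estimated 24.6 fragments in the knockout column, 32.4 in its control and 34.0 in the other wild type, so values near 1 FPKM rest on few fragments. Calls were most frequent among low genes: at a mean of 1 to 5 FPKM, 37 of 3347 genes rose and 41 fell, and at 100 FPKM or more, 1 of 600 rose and 1 fell. Sex-linked genes were not alike across the columns. Xist, transcribed from the inactive X chromosome, stood at 22.1 FPKM in the knockout, 6.67 in its control and 0.0057 in the other wild type. In the same order, the Y-linked Eif2s3y was at 5.83, 10.1 and 22.8 FPKM. The other compared Y-linked genes, Ddx3y, Kdm5d and Uty, were slightly above the control in the knockout and below the other wild type. Kdm5d was at 4.26, 3.59 and 6.62 FPKM, and Uty at 2.21, 2.13 and 4.84 FPKM. The part of sex in the results was not tested.

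Markers of myoblasts were only partly present. Pax7, the factor of satellite cells, was at 0.16 FPKM in the knockout, 0.15 in the own-litter wild type and 0.25 in the other wild type. Myf5, a factor of muscle commitment, was at 0.19, 0.44 and 0.24 FPKM in the same order. Desmin, the muscle intermediate filament, was at 18.7, 32.9 and 23.3 FPKM. Markers of other cells were abundant: Thy1 of fibroblasts was at 434, 306 and 272 FPKM, and Lyz2 of macrophages at 929, 1131 and 316 FPKM. In bulk RNA, fewer cells of a type and less RNA per cell cannot be told apart, which holds for every result here.

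The targeted gene was lower in the knockout column. Lmna was at 18.5 FPKM in the knockout, 147 in the own-litter wild type and 114 in the other wild type. The difference was -2.92 and -2.57 on the log2(FPKM + 1) scale, and 12.6% of the own-litter level was left. The share of that remainder that comes from outside the deleted part could not be read from a value per gene.

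Other genes of the nuclear envelope kept close to wild type. Of 26 compared genes of the lamina, the inner membrane and lamin processing, Lmna fell and none rose, and the median difference was -0.01. Lmnb1, which encodes lamin B1, was at 22.7, 21.7 and 24.3 FPKM in the knockout, the own-litter and the other wild type, and Lmnb2 at 6.49, 6.63 and 5.47. Lbr, the lamin B receptor that holds heterochromatin at the membrane, was at 13.5, 14.7 and 16.1 FPKM. Emd, which encodes the LEM-domain protein emerin that binds lamin A, was above both wild types at 87.4 against 75 and 51.6 FPKM, a difference of 0.22 and 0.75. Banf1, the chromatin-bridging partner of LEM proteins, had the highest difference of the list from the own litter at 0.27, and Rce1, a protease that processes prenylated proteins, stood at -0.28. The LINC components Sun1, Sun2 and Syne1 were between -0.14 and -0.09. None of 25 nucleoporin genes passed 2-fold against the own litter.

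Thick filament genes showed the lowest list median. Of 28 listed genes, 16 were below the minimum and 12 were compared. Of these 12, 8 fell and the same 8 were at least 2-fold below the other wild type. By any amount, 11 were below both, against 25.3% of all genes. The median difference was -2.14 (quartiles -2.44 and -0.73), against 0.04 for all genes, and -1.49 against the other wild type. Of the 16 members under the minimum, 12 were below both wild types and 1 above both, against 12.8% and 23.3% of all genes under the minimum. Without genes listed at 0 in the knockout and both wild types, these shares were 20.2% and 36.6%. Since a gene passes the minimum through the columns in which it is high, these counts describe the list and are no test of it.

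Myl1, a fast essential light chain, was at 3.43 FPKM in the knockout, 32.0 in the own-litter wild type and 20.1 in the other wild type, a difference of -2.90 and -2.25. Myl4, the light chain of embryonic muscle, was at 8.10, 46.7 and 23.3 FPKM (-2.39 and -1.42). Mylpf, the fast regulatory light chain, was the most abundant of the 3 at 18.7, 119 and 57.5 FPKM (-2.61 and -1.57). In each case the knockout was far below both wild types, and the other wild type lay between the knockout and its littermate. The heavy chains had lower levels. Myh3, the embryonic myosin heavy chain, was at 1.25, 10.4 and 7.67 FPKM (-2.34 and -1.95). Perinatal Myh8 was at 0.43, 4.94 and 3.67 FPKM (-2.05 and -1.70), and the fast adult Myh1 at 0.60, 6.47 and 4.54 FPKM (-2.22 and -1.79). The myosin heavy chain genes are close in sequence, so the split of fragments among them is uncertain. Mybph, the myosin binding protein H gene, was at 0.50, 9.31 and 4.43 FPKM (-2.78 and -1.85). The 4 members that did not fall were Myl6b, Ttn, Myom1 and Obsl1, with differences of -0.74, -0.72, -0.16 and -0.06. Titin (Ttn), the giant spring of the sarcomere, was below 1 FPKM in all 3 columns.

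The promoters of 5 contractile genes and of Myog, all of which fell, are shown because myogenic factors act through short sites close to the start of such genes. They are the 250 bases before the annotated start in RefSeq (build GRCm38.p6, mouse), read 5′ to 3′ on the strand of the gene: Myl1 at chr1:66945057-66945306 (minus strand), Myh3 at chr11:67078050-67078299 (plus strand), Tnnt1 at chr7:4515976-4516225 (minus strand), Mybph at chr1:134193198-134193447 (plus strand), Myh1 at chr11:67199852-67200101 (plus strand) and Myog at chr1:134289754-134290003 (plus strand). Capitals mark E-boxes, CANNTG on either strand, the core bound by MyoD and myogenin.
Myl1: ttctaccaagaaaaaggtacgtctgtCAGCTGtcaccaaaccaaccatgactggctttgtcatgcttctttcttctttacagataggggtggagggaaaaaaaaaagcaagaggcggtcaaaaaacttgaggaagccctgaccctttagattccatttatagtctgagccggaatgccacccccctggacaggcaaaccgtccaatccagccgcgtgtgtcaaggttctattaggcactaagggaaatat
Myh3: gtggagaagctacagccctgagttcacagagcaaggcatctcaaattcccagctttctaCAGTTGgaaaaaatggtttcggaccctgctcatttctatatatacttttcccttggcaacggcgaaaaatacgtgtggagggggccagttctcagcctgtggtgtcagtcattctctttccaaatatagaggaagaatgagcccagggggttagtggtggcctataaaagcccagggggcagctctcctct
Tnnt1: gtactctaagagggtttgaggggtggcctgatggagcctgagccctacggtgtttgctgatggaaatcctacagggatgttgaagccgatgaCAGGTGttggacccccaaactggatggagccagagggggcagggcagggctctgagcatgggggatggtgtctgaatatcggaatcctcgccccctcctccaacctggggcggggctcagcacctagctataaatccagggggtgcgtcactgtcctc
Mybph: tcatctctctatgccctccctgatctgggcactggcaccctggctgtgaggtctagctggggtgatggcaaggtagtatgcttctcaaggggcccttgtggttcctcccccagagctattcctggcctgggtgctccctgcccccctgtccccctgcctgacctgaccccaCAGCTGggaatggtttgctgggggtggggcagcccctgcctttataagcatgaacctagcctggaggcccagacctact
Myh1: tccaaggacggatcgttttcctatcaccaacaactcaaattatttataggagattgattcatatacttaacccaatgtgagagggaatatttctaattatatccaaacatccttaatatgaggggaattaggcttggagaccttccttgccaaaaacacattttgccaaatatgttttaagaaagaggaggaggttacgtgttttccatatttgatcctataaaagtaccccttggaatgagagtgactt
Myog: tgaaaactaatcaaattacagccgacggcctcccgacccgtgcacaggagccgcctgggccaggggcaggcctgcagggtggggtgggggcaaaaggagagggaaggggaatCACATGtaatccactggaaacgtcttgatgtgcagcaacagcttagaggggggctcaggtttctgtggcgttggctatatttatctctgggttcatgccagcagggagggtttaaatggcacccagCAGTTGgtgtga

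An E-box was found in 5 of the 6 windows, and in 66.2% of all 32851 RefSeq promoters of the same length. The first base of the E-box lay 224 bases before the start in Myl1, 191 in Myh3, 158 in Tnnt1 and 79 in Mybph. Myog held a pair of them, at 138 and 12 bases, and 31.8% of all promoters held a pair or more. The palindromic form CAGCTG, itself an E-box, was found in Myl1 and Mybph and in 13.0% of all promoters. The MCAT element CATTCC, bound by TEAD factors, was found on either strand in Myl1, Mybph and Myh1, at 80, 73 and 16 bases before the start, and in 12.6% of all promoters. The MEF2 site was searched as YTAWWWWTAR, where Y is C or T, W is A or T and R is A or G. This exact pattern was found in Myh1 alone of the 6, at 211 bases, and in 2.92% of all. Stretches that depart from it in a base, such as ctatatttat in Myog, were not counted. The CArG box, bound by SRF, was found in 0 of the 6 and in 1.47% of all. A match is a description of these windows and not evidence of binding. Shares over the whole group were not compared, because not all of its genes matched a RefSeq promoter by symbol. A match was found for 33 of the 44 muscle-list genes that fell (75%), and for 70.9% of all genes compared.

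All thin filament genes that fell encode proteins of striated muscle. Of 17 compared members of 22 listed, 9 fell and 0 rose, 8 were at least 2-fold below both wild types, and the median difference was -1.43 (quartiles -1.94 and -0.51). Against the other wild type the median was -0.97. The fallen members were 6 troponin genes, Actc1 and the leiomodins Lmod2 and Lmod3, which seed actin filaments.

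The troponin complex makes contraction depend on calcium. Tnnc2, fast troponin C, was at 1.30 FPKM in the knockout, 13.0 in the own-litter wild type and 6.75 in the other wild type (-2.61 and -1.75). Slow troponin T, Tnnt1, was at 2.73, 21.0 and 13.2 FPKM (-2.56 and -1.93), and slow troponin I, Tnni1, at 7.77, 45.7 and 22.0 FPKM (-2.41 and -1.39). Both the fast and the slow forms were lowest in the knockout. Tnnc1, shared by slow and cardiac muscle, was at 4.96, 23.8 and 11.5 FPKM (-2.06 and -1.07). Fast Tnni2 was at 0.56, 4.98 and 3.42 FPKM (-1.94 and -1.50). The cardiac form Tnnt2, which is also made in embryonic skeletal muscle, was at 10.7, 33.6 and 22.5 FPKM (-1.56 and -1.0).

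The sarcomeric actins differed from each other. Actc1, cardiac α-actin, was at 24.9, 78.0 and 36.7 FPKM (-1.61 and -0.54), so that its fall from the own litter was not 2-fold against the other wild type. Acta1, skeletal α-actin, was at 32.5, 52.6 and 25.5 FPKM (-0.68 and 0.33), between the wild types. Tpm2 and Tpm3, tropomyosins that non-muscle cells also make, were at 739 and 184 FPKM in the knockout against 705 and 177 in its littermate, differences of 0.07 and 0.05. A pair of members could not be compared. Tpm1 was listed at 0 in the knockout and at 2905 and 1960 FPKM in the wild types, and Tnnt3 at 0 against 20.8 and 13.2. In the Lbr knockout Tpm1 was also listed at 0, while Tnnt3 was at 46.0 FPKM. An exact 0 for a gene as abundant as Tpm1 can be a failed estimate, and no fold is given.

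**Figure D2:**
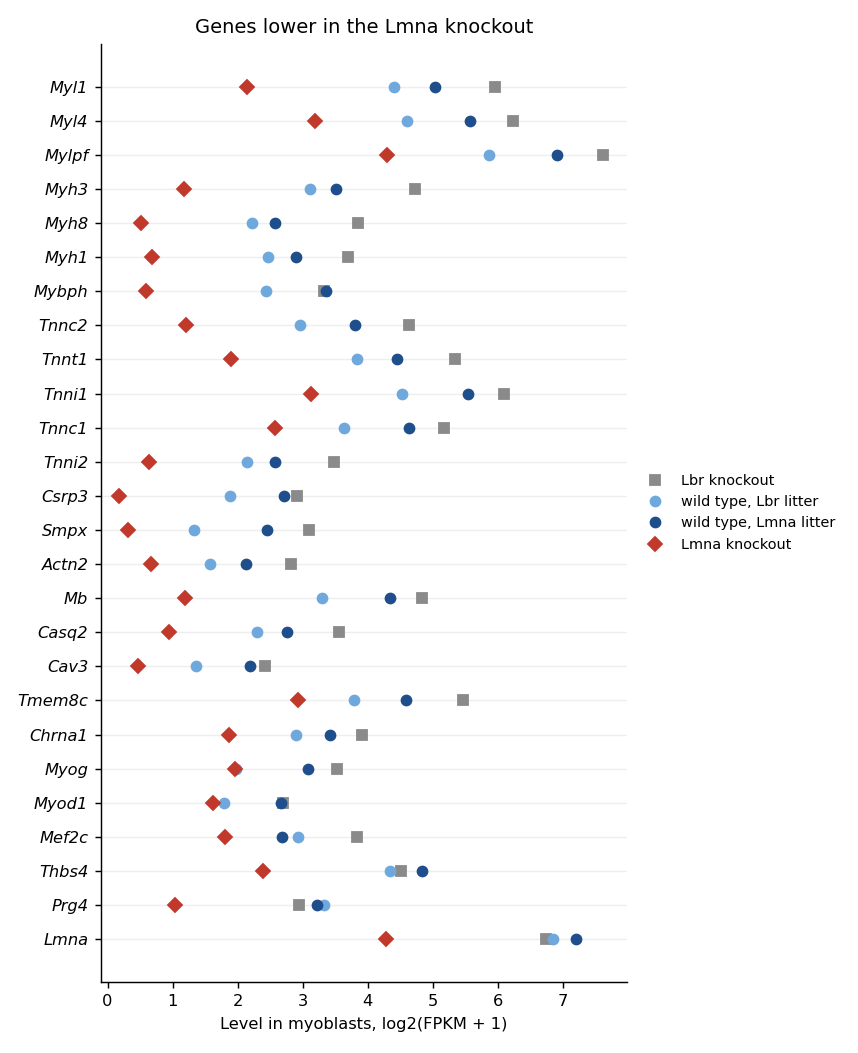
Levels, as log2(FPKM + 1) on the x axis, of 26 genes in the 4 myoblast columns, with 1 marker per column and no error bars since each group is 1 value. The red diamonds of the Lmna knockout lie left of both wild types, for Myog by only 0.02 against the other wild type, and the grey squares of the Lbr knockout lie furthest right for most contractile genes.

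At the Z-disc, where thin filaments are anchored, 9 of 22 compared members fell, 0 rose, 3 were at least 2-fold below both wild types and the median was -0.68 (quartiles -1.31 and 0.17). Against the other wild type it was -0.19, and with a minimum of 5 FPKM in place of 1 it turned to 0.18 over 11 genes. The low members and the abundant ones went different ways. Csrp3, the muscle LIM protein, was at 0.13 FPKM in the knockout, 5.57 in its littermate and 2.68 in the other wild type (-2.54 and -1.71). Smpx, a small protein of the costamere, was at 0.24, 4.47 and 1.52 FPKM (-2.14 and -1.02). Actn2 and Actn3, the sarcomeric α-actinins, differed by -1.47 and -1.31 from the own litter, and by -0.91 and -0.84 from the other wild type. In contrast, the more abundant Flnc, Cryab and Ankrd1 were above both wild types. Cryab, a small heat shock protein, was at 274, 206 and 98.7 FPKM (0.41 and 1.46), and Ankrd1, a stretch-responsive ankyrin repeat gene, at 71.2, 49.2 and 45.1 FPKM (0.53 and 0.65).

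Genes of fusion and late differentiation fell in part. Of 29 compared members, 6 fell and 0 rose, with a median of -0.27 against the own litter and -0.09 against the other wild type. At a minimum of 5 FPKM the median was -0.0054. Tmem8c, which encodes the fusion protein myomaker, was at 6.65 FPKM in the knockout, 23.1 in the own-litter wild type and 12.8 in the other (-1.66 and -0.85). Cav3, the muscle caveolin, was at 0.38, 3.55 and 1.56 FPKM (-1.72 and -0.89). Smyd1, a muscle methyltransferase that assists myosin folding, was at 0.60, 3.82 and 2.43 FPKM (-1.59 and -1.10), and was the member 2-fold below both. Popdc3 and Kbtbd10 (also known as Klhl41) fell by 1.58 and 1.34, and Itgb1bp2 by 1.16. Genes of fusion that many cells use differed by less than 0.1 from the own litter: Rac1 was at 492, 472 and 434 FPKM, and Cdh2, N-cadherin, at 57.4, 54.8 and 54.8.

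Calcium coupling and the neuromuscular junction had list medians of -0.15 and -0.15 against the own litter, and -0.20 and -0.24 against the other wild type. The calcium median was 0.02 at a minimum of 5 FPKM. In each list 1 gene was at least 2-fold below both wild types, Casq2 and Chrna1. Of 14 compared genes of calcium coupling, 4 fell: the calsequestrins Casq2 (0.92, 5.78 and 3.92 FPKM in the knockout, its littermate and the other wild type) and Casq1 (0.67, 2.98 and 1.63), the fast calcium pump Atp2a1 (0.59, 3.46 and 2.14) and the channel subunit Cacng1 (1.16, 3.47 and 1.16). Cacng1 was equal in the knockout and the other wild type, with a difference of 0.0052. The pump that other tissues share, Atp2a2, was at 150, 155 and 142 FPKM. Acetylcholine receptor subunits made up the 3 of 9 compared junction genes that fell. Chrna1 was at 2.67, 9.69 and 6.48 FPKM (-1.54 and -1.03). The difference from the own litter was -1.57 for Chrnd and -1.21 for Chrng, the subunit of the embryonic receptor. Chrnb1, another muscle subunit, was at 4.22, 4.10 and 3.52 FPKM. None of 22 dystrophin complex genes rose or fell, and their median was -0.02.

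Muscle metabolism had the deepest single fall and the muscle lists' only rise. Mb, myoglobin, was at 1.29 FPKM in the knockout, 19.2 in the own-litter wild type and 8.89 in the other (-3.14 and -2.11), the lowest difference of all 11462 genes. Cox6a2, the muscle form of a cytochrome oxidase subunit, was at 0.18, 4.49 and 3.11 FPKM (-2.22 and -1.80). In the Lbr knockout Mb was at 27.5 FPKM, above both wild types, and Cox6a2 at 0.56, below both. Pgam2, muscle phosphoglycerate mutase, sat just inside the limit at -1.0. Pfkm, muscle phosphofructokinase, rose, at 15.8, 6.64 and 4.82 FPKM (1.14 and 1.53), but was also at 12.9 in the Lbr knockout. Over the 16 compared genes, 1 rose, 3 fell and the median was 0.01. Brain-type creatine kinase, Ckb, was above both wild types at 54.9 against 40.3 and 21.4 FPKM.

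Among 20 compared transcription factors of myogenesis, Myog and Myod1 fell and the median was -0.05. Myogenin (Myog) was at 2.89 FPKM in the knockout, 7.47 in the own-litter wild type and 2.94 in the other wild type (-1.12 and -0.02). MyoD (Myod1) was at 2.09, 5.35 and 2.46 FPKM (-1.04 and -0.16). For both, the knockout was within 0.16 of the other wild type, so the fall rests on the own-litter library. Mef2c was below both, at 2.5, 5.45 and 6.62 FPKM (-0.88 and -1.12). The partners that many cells express stood close to the own litter: Mef2a at 0.01, Mef2d at 0.17, Tead1 at 0.06 and Tcf12 at -0.01. Below the minimum were 8 members, Pax3, Pax7, Myf5 and Myf6 among them. Of 23 progenitor and Notch pathway genes, none passed 2-fold. Cd34, a surface marker of quiescent satellite cells, was lowest against the own litter at -0.98, but stood at -0.14 against the other wild type.

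The muscle-list genes that fell were mostly genes with a high level in muscle tissue. The 2-fold rule did not use that level, though the other wild type, set against it here, entered the minimum. Since the lists were drawn up as muscle genes, their high level in muscle is a description and no support. In the column of wild-type striated muscle, the 44 muscle-list genes that fell were higher than in the other wild-type myoblasts by a median of 5.38 on the log2(FPKM + 1) scale, and 37 of them by at least 2-fold. The 25 other genes that fell had a median of 0.76, the 69 that rose 0.15, and all 11462 genes -0.66. At least 2-fold higher in muscle were 47 of the 69 genes that fell (68.1%) and 18 of the 69 that rose, against 13.3% of all genes. Within the 159 compared members of the muscle lists, 93 were at least 2-fold higher in muscle, of which 37 fell, with a median of -0.81. Of the other 66, 7 fell, with a median of 0.02. The kits differed between tissues, so levels in muscle and myoblasts are only roughly comparable.

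**Figure D3:**
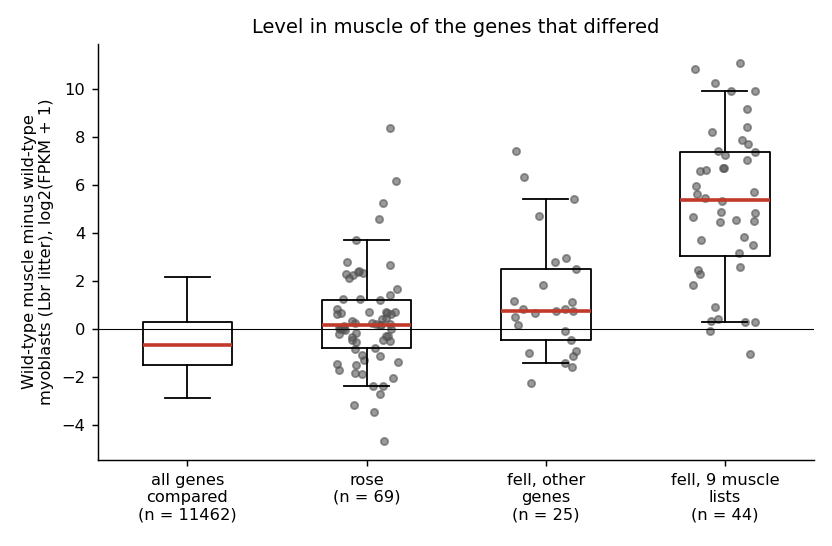
The y axis is the log2(FPKM + 1) difference of wild-type muscle from wild-type myoblasts of the Lbr litter, for all 11462 genes, the 69 that rose, and the 25 other and 44 muscle-list genes that fell. Boxes span the quartiles with a red median, whiskers the 5th to 95th percentile, and points are single genes. The muscle-list falls centre at 5.38 and the rises at 0.15.

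The 44 muscle-list genes that fell were chosen for a high own-litter value and a low knockout value, so the order of those columns is a description only. All 44 were higher in the own-litter wild type than in the other, by a median of 0.58. Their median difference was -1.60 from the own litter and -1.02 from the other wild type. The Lbr-knockout column was the highest for 42 of the 44. Myl1 stood at 61.3 FPKM there and Myh3 at 25.6, above both wild types. Of the 74 muscle-list members below the minimum, the knockout was below both wild types for 43 and above both for 11. Of all 11028 genes below the minimum, it was below both for 12.8% and above both for 23.3%, and of the 7020 of them not listed at 0 in all 3 columns, for 20.2% and 36.6%.

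Macrophage markers were also lower than in the littermate, and are given beside the muscle genes for that reason. All 23 compared markers were above 0 in every column, and none rose or fell. Below the own-litter wild type were 22, against 4807 of all 11462 genes. Below the other wild type were 0, against 4689. The median difference was -0.28 against the own litter and 1.40 against the other, from which 18 markers were at least 2-fold higher. Their summed level was 1575 FPKM in the knockout, 1925 in the own-litter wild type, 525 in the other wild type and 1678 in the Lbr knockout. The chemokine gene Ccl6 and Cd74, the invariant chain of antigen presentation, fell by 1.62 and 1.14 from the own litter, and stood at -0.37 and 0.26 against the other wild type. Fibroblast markers had a median of 0.17 over 16 genes, none of which rose or fell. Thy1 differed by 0.50 and 0.67, and Ly6a by -0.85 and 0.86. The part of the cell mixture in the muscle results was not tested.

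**Figure D4:**
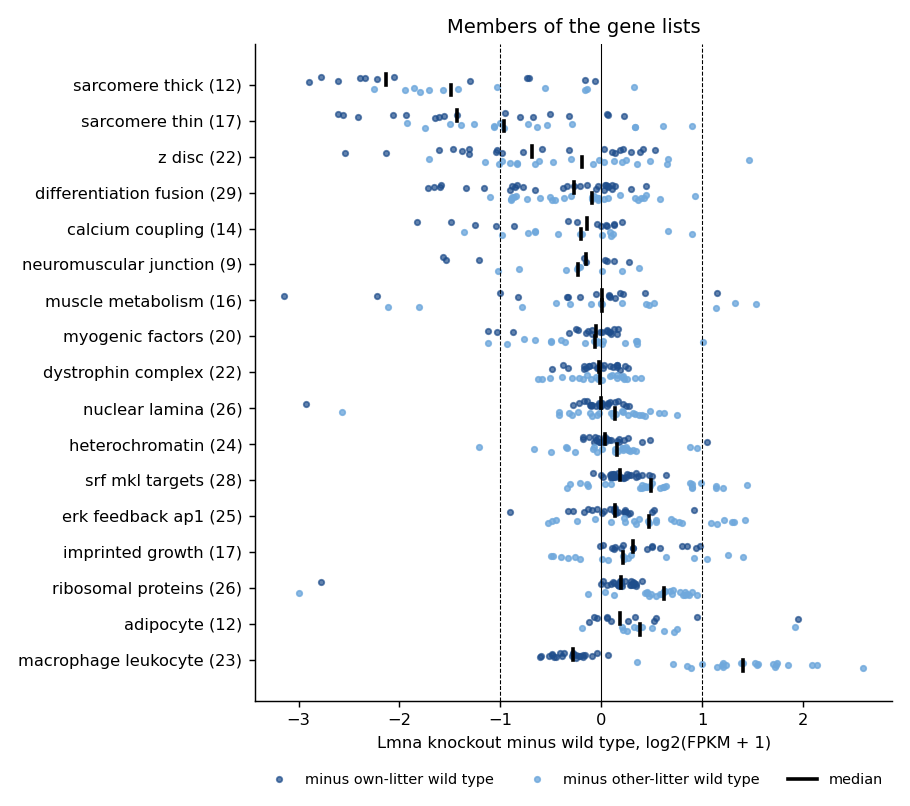
Each point is a gene of 1 of 17 lists, with the number compared in brackets, placed by the log2(FPKM + 1) difference of the Lmna knockout from the own-litter (dark) and the other wild type (light). Black bars are medians and dashed lines mark 2-fold. The thick and thin filament lists lie left with medians of -2.14 and -1.43, and the macrophage list splits by control, at -0.28 and 1.40.

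Outside the muscle lists, the genes that fell included several of tendon, cartilage and matrix. Thbs4, thrombospondin 4 of tendon and muscle matrix, was at 4.25 FPKM in the knockout, 27.6 in the own-litter wild type and 19.4 in the other (-2.45 and -1.96). Prg4, the joint lubricant lubricin, was at 1.05, 8.30 and 9.0 FPKM (-2.18 and -2.29). For both, each wild type was far above the knockout. Scx, the tendon factor scleraxis, was at 1.67, 5.21 and 2.15 FPKM (-1.22 and -0.24), and Col2a1, the cartilage collagen, at 1.69, 6.36 and 3.69 (-1.45 and -0.80). Eln, elastin, fell at -1.01 but stood at -0.22 against the other wild type. Of 30 compared collagen and matrix genes, Eln alone passed 2-fold against the own litter, and the list median was -0.01. The tendon and cartilage genes did not form a list: apart from Thbs4 and Prg4, they were picked after their values were seen.

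A few falls were of general genes. Rpl26, a ribosomal protein gene, was at 1.88 FPKM in the knockout, 18.8 and 22.0 in the wild types (-2.78 and -3.00) and 7.68 in the Lbr knockout. It stood alone in its list, since 24 of 26 ribosomal protein genes were above the own-litter wild type, against 6655 of all 11462 genes. The median of the list was 0.19. Ribosomal protein genes have many processed copies in the genome, so the value of Rpl26 depends on how such fragments were assigned. Gtpbp6 and Lrfn4 were low in both knockouts: Gtpbp6 was at 0.61 FPKM against 3.78 and 4.15 in the wild types and 0.53 in the Lbr knockout, and Lrfn4 at 1.55 against 4.45 and 4.58, and 1.44.

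The genes that rose were mixed in kind. Of the 69, 26 were small RNAs, pseudogenes or predicted genes, against 2 of the 69 that fell and 935 of all 11462. The largest rise was the predicted gene Gm9846, at 181 FPKM in the knockout and 0.62 and 0.052 in the wild types (6.81 and 7.43), but also at 90.8 in the Lbr knockout. Predicted genes of this kind can share fragments with a parent gene. The rises named by rule leave such genes out.

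Among genes of fat metabolism, Fabp4 rose. This fatty acid binding protein of adipocytes and macrophages was at 20.5 FPKM in the knockout, 4.58 in the own-litter wild type and 4.67 in the other (1.94 and 1.92), and at 10.5 in the Lbr knockout. Lpl, lipoprotein lipase, was at 23.9, 11.9 and 14.1 FPKM (0.95 and 0.72), and Pparg, the master factor of fat cells, at 10.3, 6.79 and 5.74 (0.54 and 0.75). Of 12 compared adipocyte genes, 1 rose and 0 fell, and the median was 0.18. Above both wild types were 9, against 42.4% of all genes. The defining fat cell genes were below the minimum. Cfd, adipsin, was at 1.88 FPKM in the knockout against 0.065 in the own litter and a listed 0 in the other wild type. Adipoq, adiponectin, was at 0.63 FPKM, Plin1, the lipid droplet coat protein perilipin, at 0.74 and Cidec, another droplet protein, at 0.40, and all 3 were listed at 0 in the own-litter wild type. Retn, resistin, was listed at 0 in the knockout and both wild types. Hp, haptoglobin, which liver and fat cells secrete, was at 4.61 FPKM against 0.23 in the own litter and a listed 0 in the other wild type (2.19 and 2.49), with 0.28 in the Lbr knockout. The summed level of the adipocyte list was 207 FPKM in the knockout against 151 and 148 in the wild types. Whether the rise of Fabp4 goes with fat cells in the culture was not tested.

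Other rises were of genes highest in the Lmna knockout alone of the 4 myoblast columns or of genes also high in the Lbr knockout. In the first kind, Hist2h2bb, a histone H2B gene, was at 14.5 FPKM against 2.83 and 3.21 in the wild types and 3.14 in the Lbr knockout. S100a7a, a calcium-binding S100 gene, was at 5.85 against 1.10, 0.38 and 0.35, and Ifi27l2b, of the interferon-inducible Ifi27 family, at 18.7 against 6.93, 2.28 and 3.60. Golim4, a Golgi membrane protein gene, was the most abundant of this kind at 171 FPKM against 73.5, 74.2 and 72.5, with differences of 1.20 and 1.19. Edn1, which encodes the vasoconstrictor endothelin 1, was at 13.6 against 5.99, 5.19 and 4.54. The plasma glutathione peroxidase Gpx3 was at 77.2 against 35.7 and 37.5, with 52.3 in the Lbr knockout.

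In the second kind, Abhd1, an α/β hydrolase gene, was at 5.95 FPKM against 0.11 and 0.18 in the wild types (2.64 and 2.56) and 8.45 in the Lbr knockout. Hyi, hydroxypyruvate isomerase, was at 14.3 against 3.47 and 3.60, with 17.1 in the Lbr knockout. Tnfsf13, the cytokine APRIL, was at 3.12 against 0.15 and a listed 0, with 2.87. Gnal, a G protein α subunit of olfactory signalling, was at 4.30 against 1.04 and 1.16, with 4.60, and Astn2, astrotactin 2, at 2.27 against 0.35 and 0.37, with 2.09. These 5 were close in level in the knockouts of the different genes. Ccdc85b, Rffl, Syn1 and Slc5a6 lay between, with the Lbr-knockout level above both wild types and below the Lmna knockout. Their differences from the own litter were 1.5, 1.65, 1.57 and 1.28. The Lbr knockouts were compared here by level only.

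**Figure D5:**
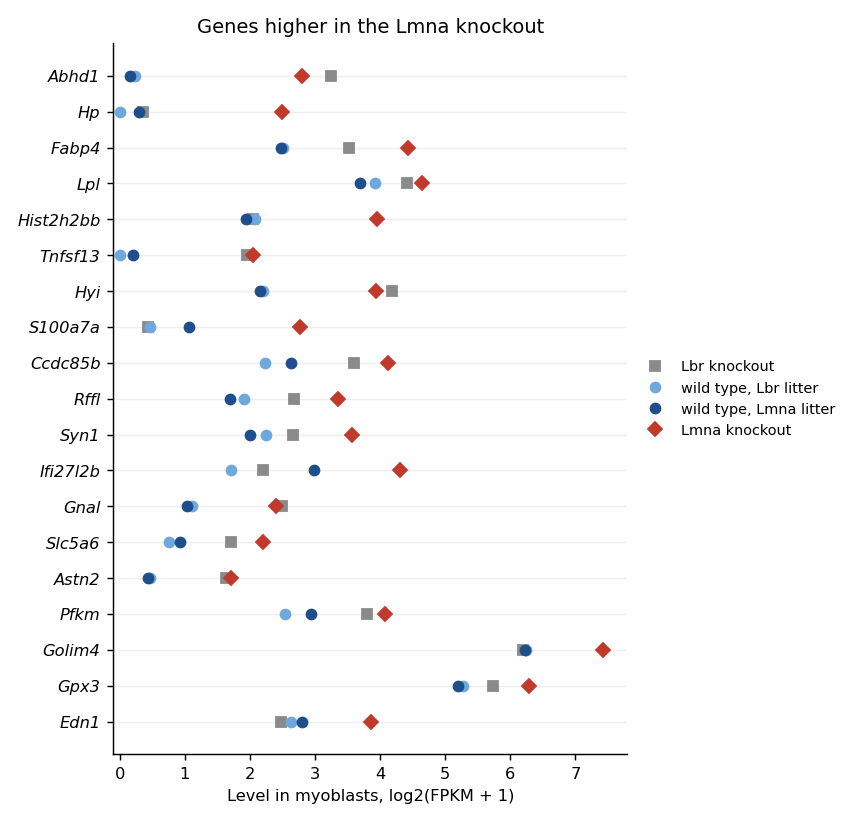
Levels, as log2(FPKM + 1) on the x axis, of 19 genes in the 4 myoblast columns, with 1 marker per column and no error bars. The red diamonds of the Lmna knockout lie right of both wild types for all 19, and for Abhd1, Hyi, Tnfsf13, Gnal and Astn2 the grey squares of the Lbr knockout lie close to them.

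Targets of SRF and its actin-sensing cofactors are mostly cytoskeletal genes. None of 28 compared genes rose or fell, and 23 were above both wild types, against 42.4% of all genes. The median was 0.18 against the own litter, 0.49 against the other wild type and 0.06 against the own litter after quantile normalization. Cnn1, the smooth muscle calponin, was at 449 FPKM in the knockout, 287 in the own-litter wild type and 165 in the other (0.64 and 1.44). Srf itself was at 27.6, 19.6 and 13.4 FPKM (0.47 and 0.99) and Mkl1, its cofactor, at 40.6, 28.4 and 21.3 (0.50 and 0.90). Actb, cytoplasmic β-actin, was at 4859, 3955 and 2605 FPKM. In all of these the other wild type was lowest.

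Immediate early genes and feedback regulators of ERK signalling had a median of 0.13 over 25 genes, with 0 risen or fallen. Against the other wild type the median was 0.48, and 6 of the 25 were at least 2-fold higher. Dusp4, a phosphatase of nuclear ERK, was at 23.9, 12.2 and 9.06 FPKM (0.92 and 1.31) and Phlda1 at 112, 77.6 and 47.7 (0.52 and 1.21). Fosl1, a subunit of AP-1, went the other way at 22.4, 42.6 and 32.6 FPKM (-0.90 and -0.53). The YAP target list had a median of 0.18, or 0.05 after quantile normalization, with F3, tissue factor, highest at 0.74 and 1.01. TGF-β and Wnt lists had medians of 0.05 and 0.07, with no member past 2-fold against the own litter.

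Imprinted growth genes were above the own-litter wild type in 16 of 17 cases, against 6655 of all 11462 genes, with a median of 0.32. Above both wild types were 11 of the 17, against 42.4% of all genes. Slc38a4, an amino acid transporter, was highest at 0.98, just outside the limit, but 0.26 against the other wild type. Dlk1, a transmembrane inhibitor of differentiation, was at 6.37, 2.85 and 2.58 FPKM (0.93 and 1.04). Igf2, the fetal growth factor, was at 114, 63.1 and 72.8 FPKM (0.85 and 0.64). H19, the noncoding RNA next to it, was at 56.9, 49.7 and 54.3 FPKM (0.19 and 0.07), so the neighbours did not differ by the same amount.

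Of 29 mitosis genes none passed 2-fold against the own litter, and their values lay between -0.35 and 0.13 with a median of -0.17. Of these, 26 were below the own-litter wild type and 16 below both, against 4807 and 2897 of all 11462 genes. Against the other wild type the mitosis median was -0.04 and 3 genes were at least 2-fold lower, among them the centromere genes Cenpe at -1.36 and Cenpf at -1.28. S-phase genes had a median of 0.02, cell cycle regulators -0.0045 and p53 targets 0.12. Against the other wild type these medians were 0.22, 0.24 and 0.41, with 0, 2 and 3 genes at least 2-fold higher. In the heterochromatin list, Setdb1, an H3K9 methyltransferase, rose, at 19 FPKM against 8.68 and 9.41 (1.05 and 0.94), with 20.7 in the Lbr knockout. The other 23 compared heterochromatin genes lay between -0.18 and 0.48 against the own litter.

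The 2-fold limit falls in a continuous range. The 5 genes just inside it on the lower side, Pgam2, Ccl20, Rps3a, Eln and Trnt1, had differences of -1.03 to -1.0, and the 5 just outside, Ankrd23, Cd34, Xirp1, Cbr2 and Fhdc1, -0.99 to -0.95. On the upper side those inside had 1.00 to 1.02, and Slc38a4, just outside, had 0.98. By any amount, 66 of the 69 genes that fell were also below the other wild type, and 64 of the 69 that rose were above it.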

How the data were processed

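RNA was extracted with TRIZOL and RNeasy columns, and the myoblast libraries were made with the NuGEN Ovation RNA-Seq kit, per the labels' protocols. The authors deposited FPKM values in 1 table with 7 value columns, 1 per group, and 0 columns were left unmatched. Per the submitters' processing notes, the build was mm9. How reads were aligned and quantified, and how 2 libraries became 1 column, is not given in the sources used here. Depth per sample is unknown, and what 1 fragment is worth was estimated from the low values of 4179 genes with 1 transcript in GENCODE, multiplied by length.

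Differences were calculated as log2(FPKM + 1), a pseudocount of 1, which understates the change of low genes. Of 22552 genes, 11028 were below the minimum mean of 1 FPKM, 62 were listed at 0 in a compared column and 11462 were compared. The 14 symbols that stand in the table in the form of a date were left as they are. Python 3.11.15, pandas 2.3.3, numpy 2.4.6 and matplotlib 3.10.9 were used. Gene groups came from 40 lists with 950 genes, 18 of them not matched to the table. The comparison, its members and the lists were chosen with earlier results of these data known, so no list is independent support.

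Named genes were Lmna, Lmnb1, Lmnb2, Lbr and Emd, up to 5 members per described list by size of difference, the 15 largest rises and falls among genes at least 2-fold from both wild types (without small RNAs, pseudogenes and predicted genes), and genes listed at 0 against 2 FPKM or more. Other named genes were chosen after their values were seen, and a few genes that meet the rule are not reported here. In simulated data, 200 of 11435 genes were changed up or down, some of them 3-fold and the others 1.5-fold. Of those changed 3-fold, 100% were recovered. There were 0 false calls among the genes left unchanged, which checks the arithmetic only. Alternatives were other pseudocounts, minimums, fold rules, scalings and controls. RefSeq promoters were searched as text on both strands.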

Additional observations from a re-analysis of the deposited data

Results flagged for a closer look

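Of the genes that rose or fell in the Lmna-knockout myoblasts, 7 differed at least 2-fold the opposite way in striated muscle of Lmna knockouts against wild-type muscle, and 13 differed at least 2-fold the same way. Over all 11462 genes, 1.15% were at least 2-fold higher and 0.43% at least 2-fold lower in knockout muscle. Of the 7, Mir692-1 was listed at 0 in knockout muscle and is not described, which leaves 6. The difference between the tissues was not tested, since each group is 1 column, and the kits differed. Csrp3, the muscle LIM protein, had a difference of -2.54 in myoblasts and 1.65 in muscle, at 255 FPKM in knockout against 80.2 in wild-type muscle. Cd74, the invariant chain, had -1.14 in myoblasts and 1.40 in muscle. Abhd1 had 2.64 and -1.02, and Mdk, the growth factor midkine, 1.34 and -1.21. The small nucleolar RNA genes Snord16a and Snora23 had 1.10 and 1.14 in myoblasts and -1.87 and -1.17 in muscle.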

How the results depend on the processing

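The counts moved with the settings. Rises and falls numbered 111 and 112 with a pseudocount of 0.1 FPKM, 13 and 19 with 5 FPKM, 32 and 28 with a minimum of 5 FPKM, 20 and 29 at 3-fold, 209 and 182 at 1.5-fold, and 395 and 128 against the other wild type. With genes at 0 kept there were 116 falls, and without small RNAs, pseudogenes and predicted genes, an alternative added after seeing the data, 43 rises. Against both wild types, rises numbered 10 with a pseudocount of 5, 20 with a minimum of 5, 15 at 3-fold and 134 at 1.5-fold, and falls 82 with a pseudocount of 0.1, 11 with 5, 22 with a minimum of 5, 80 with zeros kept, 14 at 3-fold and 102 at 1.5-fold. The share of calls that were rises was 50% in the main comparison, 40.6% with a pseudocount of 5, 40.5% with zeros kept, 39.1% without small RNAs and the like, and 75.5% against the other wild type.

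The thick filament median was -2.81 and -0.95 with pseudocounts of 0.1 and 5, -0.74 with no minimum and -1.49 against the other wild type. The thin filament median was -0.59 with a pseudocount of 5, -0.88 with no minimum and -0.97 against the other wild type. The Z-disc median was -0.33 with a pseudocount of 5, 0.18 with a minimum of 5 FPKM and -0.19 against the other wild type. Of 56 named genes past 2-fold, 56 stayed so with centring, no minimum or a pseudocount of 0.1, 54 under quantile normalization, 48 against the mean of both wild types, 40 against the other wild type and 23 with a pseudocount of 5. Cacng1 reversed against the other wild type, at 0.0052. The causes were not tested. No paired analysis was possible because each group has 1 column, and for the same reason no library could be left out. Depth limits low genes: 78 of the 138 genes that rose or fell were genes with a mean of 1 to 5 FPKM.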

Other observations

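The genes listed at 0 form a group of their own. Of 62 genes that met the minimum but had a 0 in a compared column, 49 were at 0 in the Lmna knockout only and 13 in the own-litter wild type only. Of the 49, 39 were also at 0 in the Lbr knockout, and 44 had 2 FPKM or more in the own-litter wild type. Among them were 16 genes of the protocadherin clusters (Pcdh), which share exons within a cluster. All 16 were at 0 in both knockouts, and none was at 0 in a muscle column. Gnas, a G protein α subunit with overlapping transcripts, was listed at 0 in both knockouts and at 871 and 899 FPKM in the wild types. Pdia6, a disulfide isomerase of the endoplasmic reticulum, was at 0 against 156 and 135, and Pcdhgc3 at 0 against 56.0 and 52.1. Psap, the precursor of the saposins, and Cdc42bpa, a kinase that acts on the actomyosin cytoskeleton, were at 0 in the Lmna knockout alone, at 97.0 and 39.5 FPKM in its littermate and at 81.4 and 45.8 in the Lbr knockout. In the other direction, 7 genes at 0 in the own-litter wild type had 2 FPKM or more in the knockout, Mir671 at 7.54 among them. No fold can be given for these genes.

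Against wild-type muscle, Lmna-knockout muscle had a median difference of 0.04 over the 69 genes that fell in myoblasts, with 2 at least 2-fold higher and 4 lower, and of 0.29 over the 69 that rose, with 9 higher and 5 lower. Over all 11462 genes, 1.15% were at least 2-fold higher and 0.43% at least 2-fold lower in knockout muscle. In the same direction as in myoblasts, those 9 are 13.0% and those 4 are 5.80% of their sets. In the opposite direction, the 5 are 7.25% and the 2 are 2.90%, so both directions were above the share of all genes. The 4 were Lmna, Actc1, Rpl26 and the predicted gene Gm7325, and the 9 held Hp, Plac9 and Xist beside small RNAs and pseudogenes. They are named after their values were seen. The median of all genes was 0.11. The muscle-list genes that fell in myoblasts had a median of -0.10 in muscle. Myog was at 28.7 FPKM in knockout and 42.9 in wild-type muscle.

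Markers of Schwann cells, the glia of nerves, were above both wild types for 8 of 12 compared genes, against 42.4% of all genes. Their summed level was 402 FPKM in the knockout, 295 in the own-litter wild type and 231 in the other wild type, most of it Pmp22, at 294, 211 and 140 FPKM. Sox10, the factor that defines the lineage, was at 12.7, 7.85 and 10.9 FPKM. None rose or fell.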
